A study of Mus musculus with 24 samples.

Results

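The 10 transcripts described here mark T lymphocytes and natural killer (NK) cells in most tissues: Lck, Il18rap, Il2rb, Klrd1, Cd2, Nkg7, Gzma, Gzmb, Prf1 and Ifng. They were selected on measured values, because Lck and Il18rap were lower in Olfml3 knockout than in wild-type bone marrow-derived macrophages (BMDMs) given lipopolysaccharide (LPS), and the other 8 were set beside them to ask whether lymphoid genes and Ifng move with the pair. All 10 were found by symbol in both expression tables, among 56691 genes. In the 24 libraries, Lck and Il18rap were expressed in both macrophage types and rose with LPS in wild-type cells of both. The other 8, Ifng included, were at or near 0 counts in almost every library. The label of a lymphocyte and NK group therefore holds by name only, and the 10 genes are treated below as a pair that was measured and 8 that were barely detected.

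RNA-seq was performed on 8 groups of 3 libraries. RAW264.7 is a mouse macrophage-like line, and its knockout cells came from lentiviral CRISPR-Cas9 editing of Olfml3 followed by the isolation of single-cell clones, so the group labelled knockout may carry what is particular to a clone. BMDMs were grown for 6 days in medium with L929 cell supernatant from the marrow of 8-week-old male C57BL/6 mice, wild type or with a global Olfml3-/- deletion. Each genotype received PBS or 100 ng/mL LPS, an outer membrane component of Gram-negative bacteria, for 4 h. The study calls the 3 libraries of a group biological replicates, but no source used here says whether they come from separate cultures or animals, so p-values measure the spread between these libraries, which may be technical. Total counts ran from 11638273 to 16478616 per library in RAW264.7, and 17121240 to 22873094 in BMDMs. Olfml3 itself, an olfactomedin-like secreted protein, had 71 to 88 counts in wild-type BMDMs with PBS, 33 to 35 with LPS, 1 to 4 in knockout BMDMs with PBS and 0 or 1 with LPS. In RAW264.7 it went against the label, with 10 to 26 counts in the 6 wild-type libraries, 66 to 105 in the libraries labelled knockout with PBS and 1357 to 1524 in those labelled knockout with LPS. These libraries are called labelled knockout throughout.

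LCK is the Src family kinase that phosphorylates the CD3 chains of an engaged T cell receptor, and IL18RAP is the accessory chain of the interleukin-18 (IL-18) receptor, which with the ligand-binding chain IL18R1 signals through MYD88. In T and NK cells IL-18, acting together with IL-12, is known to raise interferon gamma, which in turn acts on macrophages. IL2RB is the chain shared by the IL-2 and IL-15 receptors, CD94 (encoded by Klrd1) pairs with NKG2 receptors that read MHC class Ib molecules, and CD2 is an adhesion receptor that binds CD48. Perforin (Prf1) opens a path for granzymes A and B (Gzma, Gzmb), and NKG7 lies in the membrane of the same cytotoxic granules.

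On GRCm38, with GENCODE M21, Lck (ENSMUSG00000000409) lies on the minus strand at chr4:129548344-129573641 and Il18rap (ENSMUSG00000026068) on the plus strand at chr1:40515362-40551705. RefSeq promoters of GRCm38.p6 were matched by symbol for 7 of the 10 members, which gave 8 windows of 250 bases before a start site, since Lck has an upstream and a downstream start. The windows of the pair that moved are shown with that of Prf1, a member that stayed near 0. Capitals mark AGGAAGT or its other strand ACTTCCT, letters that contain the GGAA core bound by ETS family factors such as PU.1. Of the 8 windows, only the 4 shown hold these letters, and those of Nkg7, Gzma, Gzmb and Ifng do not.
Il18rap, chr1:40515112-40515361, plus strand: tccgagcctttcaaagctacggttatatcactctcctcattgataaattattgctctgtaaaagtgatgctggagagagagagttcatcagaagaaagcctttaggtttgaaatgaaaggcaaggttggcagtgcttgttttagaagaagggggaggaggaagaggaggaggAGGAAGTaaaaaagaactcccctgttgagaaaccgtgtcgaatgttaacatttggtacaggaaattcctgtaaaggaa
Lck upstream start, chr4:129573642-129573891, minus strand: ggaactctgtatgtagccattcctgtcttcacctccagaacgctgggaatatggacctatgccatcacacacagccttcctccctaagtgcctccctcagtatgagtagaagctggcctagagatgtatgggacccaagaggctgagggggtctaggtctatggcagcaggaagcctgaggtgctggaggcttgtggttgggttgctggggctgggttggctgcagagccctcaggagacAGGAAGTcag
Lck downstream start, chr4:129558373-129558622, minus strand: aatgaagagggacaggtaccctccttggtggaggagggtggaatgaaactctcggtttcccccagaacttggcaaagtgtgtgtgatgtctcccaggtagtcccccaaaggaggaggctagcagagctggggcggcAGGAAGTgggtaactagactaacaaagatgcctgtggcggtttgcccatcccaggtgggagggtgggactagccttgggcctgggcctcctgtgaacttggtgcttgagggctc
Prf1, chr10:61297586-61297835, plus strand: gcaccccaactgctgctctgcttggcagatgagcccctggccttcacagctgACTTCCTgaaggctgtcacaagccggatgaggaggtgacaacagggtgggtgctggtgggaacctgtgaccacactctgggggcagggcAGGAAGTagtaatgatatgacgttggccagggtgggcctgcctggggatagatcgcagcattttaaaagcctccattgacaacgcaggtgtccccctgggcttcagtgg

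These letters were chosen after the sequences were seen. They start 78 bases before the Il18rap start, 10 and 114 bases before the upstream and downstream Lck starts, and 198 and 109 bases before the Prf1 start, and they are found in 7.69% of 32851 promoter windows of this length. The longer PU.1-like string GAGGAAGT, found in 2.44% of windows, overlaps the Il18rap match by starting 79 bases before the start, and is in none of the other 7 windows. A gamma-activated site, TTCNNNGAA, is in 7.02% of all windows and in those of Nkg7 and Ifng, and GAAANNGAA, a string of the type bound by interferon regulatory factors, is in 7.13% of all windows and in that of Gzma, where it occurs 2 times. Both strands were searched. Neither of the last pair of strings occurs in the windows of Lck or Il18rap.

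Lck had the larger ratio of highest to lowest library of the pair. In RAW264.7 its FPKM (fragment counts divided by exon length and by library depth) was 0.77, 0.91 and 1.3 in wild-type libraries with PBS, 2.59, 2.65 and 2.39 with LPS, 0.33, 0.36 and 0.1 in labelled knockout libraries with PBS, and 0.41, 0.6 and 0.31 with LPS. Wild-type libraries were the higher in either condition, with no overlap. In BMDMs it was 0.02, 0.09 and 0.12 in wild type with PBS, 12.72, 11.7 and 10.96 with LPS, 0.08, 0.06 and 0.02 in knockout with PBS, and 3.62, 3.89 and 3.85 with LPS. The LPS libraries stood far above the PBS libraries in either genotype, and with LPS the wild-type libraries stood above the knockout libraries. Behind these levels lay 520 counts over the 12 RAW264.7 libraries and 3017 over the 12 BMDM libraries.

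In these separately normalized tables Il18rap was higher in RAW264.7 than in BMDMs in every group, whereas Lck was so with PBS only. Its FPKM in RAW264.7 was 8.56, 8.92 and 9.3 in wild type with PBS, 15.54, 14.32 and 15.6 with LPS, 5.75, 7.6 and 7.26 in labelled knockout libraries with PBS, and 10.69, 9.65 and 10.16 with LPS. Again no labelled knockout library reached the wild-type libraries of the same treatment. In BMDMs it was 0.17, 0.28 and 0.3 in wild type with PBS, 2.41, 2.48 and 2.36 with LPS, 0.28, 0.14 and 0.19 in knockout with PBS, and 0.44, 0.56 and 0.33 with LPS. The PBS groups overlapped there and the LPS groups did not. It had 11558 counts over the RAW264.7 libraries and 1478 over the BMDM libraries.

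**Figure D1:**
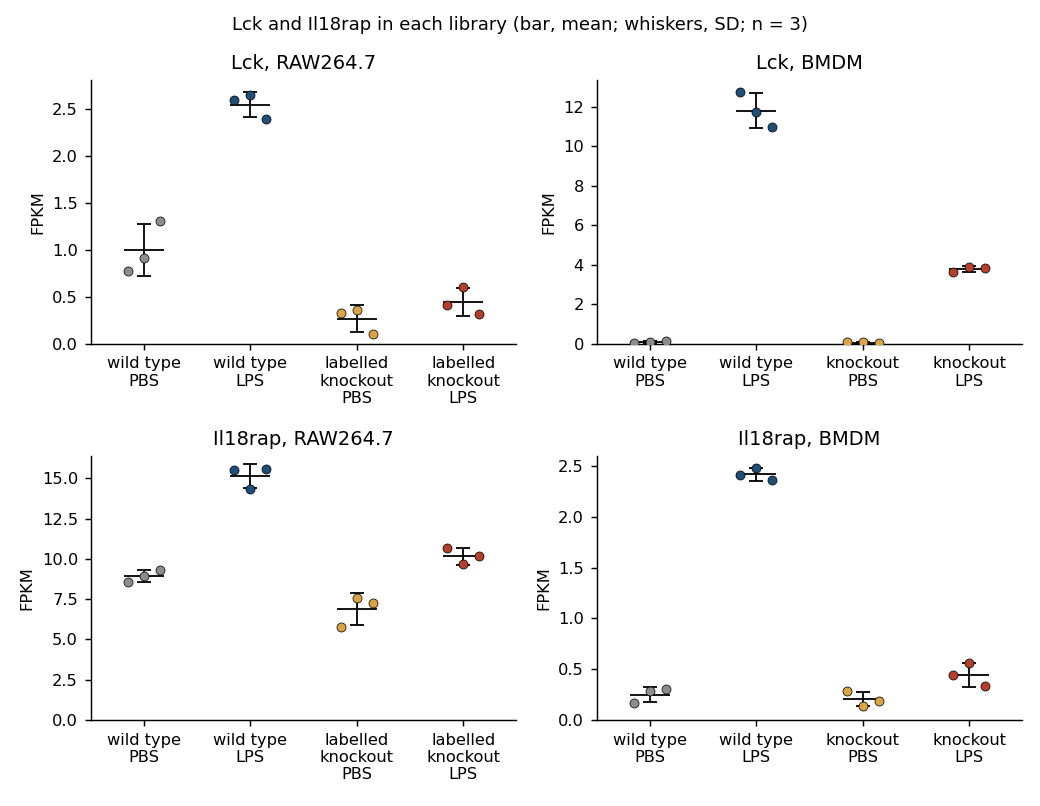
FPKM (linear axis from 0) of Lck, upper row, and Il18rap, lower row, in each RAW264.7 library, left, and each BMDM library, right, by group. Points are libraries, bars the mean and whiskers the SD of 3 libraries. In all 4 panels the 3 wild-type LPS libraries are the highest.

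By mean FPKM, Lck was highest in wild-type BMDMs with LPS (11.8 ± 0.884, SD, n = 3), then knockout BMDMs with LPS (3.79 ± 0.146), wild-type RAW264.7 with LPS (2.54 ± 0.136) and with PBS (0.993 ± 0.275), labelled knockout RAW264.7 with LPS (0.44 ± 0.147) and with PBS (0.263 ± 0.142), and BMDMs with PBS, wild type (0.0767 ± 0.0513) and knockout (0.0533 ± 0.0306). Neighbours in the last 4 places overlapped between libraries. Il18rap ran from wild-type RAW264.7 with LPS (15.2 ± 0.722) through labelled knockout with LPS (10.2 ± 0.52), wild type with PBS (8.93 ± 0.37) and labelled knockout with PBS (6.87 ± 0.985) to wild-type BMDMs with LPS (2.42 ± 0.0603), knockout with LPS (0.443 ± 0.115), wild type with PBS (0.25 ± 0.07) and knockout with PBS (0.203 ± 0.0709). Only the last pair in that order overlapped. FPKM was set by the authors in 1 table per cell type, so the order across cell types compares separately normalized tables. In bulk RNA, fewer cells that express a gene and less RNA per cell cannot be told apart.

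The remaining 8 members gave 36 counts in all over the RAW264.7 libraries and 20 over the BMDM libraries. Of 96 values per cell type, 86 were 0 in RAW264.7 and 82 in BMDMs. In BMDMs no library had more than 2 counts of any of them. Ifng had 0 counts in all 24 libraries, which over the 12 libraries of a cell type allows up to 0.0138 FPKM in RAW264.7 and 0.00903 in BMDMs, taking 3 counts as the limit that a count of 0 allows and covering counting error only. Nkg7, Gzma and Gzmb were at 0 in all BMDM libraries as well. Klrd1, the most frequent of the 8 in BMDMs, had 2, 0 and 0 counts in wild type with PBS, 2, 1 and 2 with LPS, 1, 0 and 1 in knockout with PBS and 0, 1 and 0 with LPS, and it was at 0 throughout RAW264.7. Cd2 had 5 counts in BMDMs, of which 4 came from knockout libraries with PBS, and 1 in RAW264.7. Il2rb had 3 counts in BMDMs and 5 in RAW264.7, and Prf1 2 and 3.

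The exception was replicate 2 of the labelled knockout RAW264.7 libraries with PBS, which held 30 of the 36 counts. Gzma, with 15 counts, and Gzmb, with 8, were counted in no other library of either cell type. Nkg7 had 3 counts there and 1 in replicate 1 of the same group. Lck in that replicate was at 0.36 FPKM, beside 0.33 in replicate 1 of the group. No ratio between groups is given for the 8 genes, because their counts were at or near the limit of 3 or rested on that replicate. Klrd1 leaned the way of Lck in BMDMs with LPS, with 5 counts over the wild-type group and 1 over the knockout group, too few to tell apart (limma adjusted p = 0.149).

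**Figure D2:**
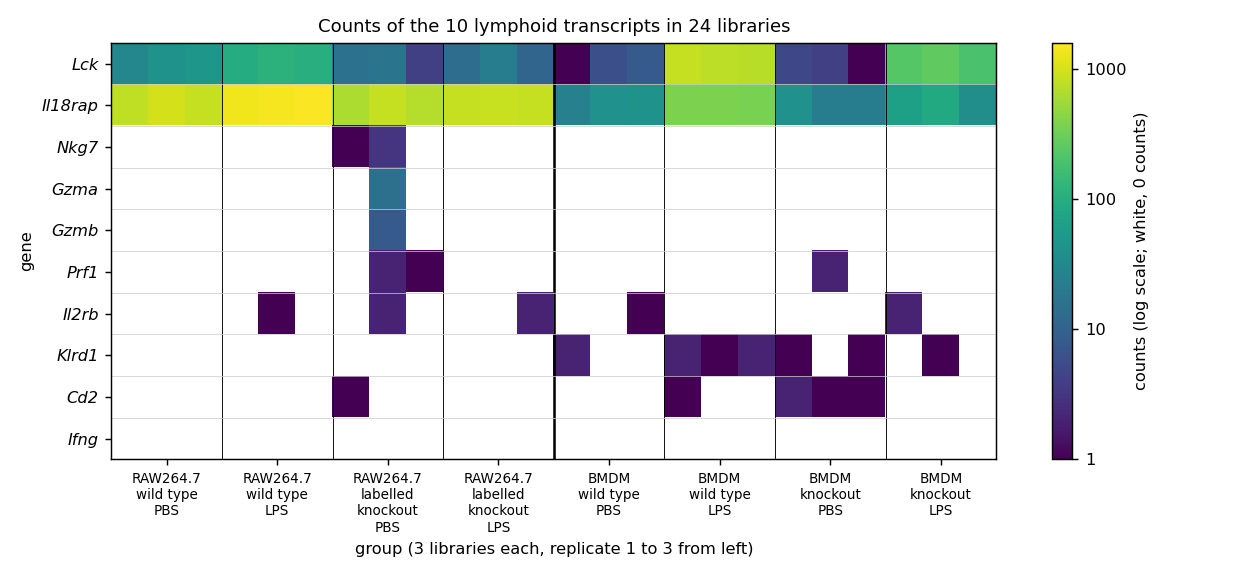
Counts of the 10 members (rows) in 24 libraries (columns, 3 per group, RAW264.7 left of the thick line and BMDM right), on a logarithmic colour scale with 0 counts in white. Lck and Il18rap are filled in every library, whereas Ifng is white throughout and Gzma and Gzmb are filled only in replicate 2 of the labelled knockout RAW264.7 group with PBS.

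The pair was also compared between labelled knockout and wild-type RAW264.7 libraries, which took no part in picking it. Olfml3 counts were higher in these labelled knockout libraries, and the knockout cells came from single-cell clones. A lower level of the pair here therefore cannot be read as an effect of lower Olfml3 RNA. A gene was called where its limma adjusted p fell below 0.05 and its fold change reached 1.5. With PBS, 1 of the 8 members tested was called (8.55% of all genes tested were), namely Lck, which was lower in labelled knockout libraries by a log2 difference of -1.65 on the log2(FPKM + 0.1) scale (SE 0.33, limma adjusted p = 0.0118). Il18rap differed by -0.38 (SE 0.11, limma adjusted p = 0.0496), which is under the fold threshold. With LPS, 1 of 8 was called (17.3% of all genes), again Lck, at -2.33 (SE 0.33, limma adjusted p = 0.00114), with mean FPKM 5.78-fold lower. Il18rap differed by -0.57 (SE 0.11, limma adjusted p = 0.00551), at 1.49-fold lower just under the fold threshold, and it passed both thresholds with median-ratio scaling, with edgeR and with DESeq2. The Lck call with PBS was lost when the 2 groups were fitted alone (limma adjusted p = 0.0921).

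Macrophage markers moved in the same direction in these libraries. The 12 genes of that list summed to between 3547.72 and 4306.48 FPKM in wild-type RAW264.7 libraries and between 1272.6 and 1600.72 in labelled knockout libraries, and 6 of 11 tested were lower and 0 higher in either condition, among them lysozyme (Lyz2), from 2052 to 317 mean FPKM with PBS and 2201 to 408 with LPS. Of all genes tested, 3.77% were lower with PBS and 7.60% with LPS. Lyz2 alone made up most of the fall in the sums. The part of the lower macrophage markers in the lower Lck and Il18rap was not tested.

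In wild-type RAW264.7 cells LPS raised both genes, and 2 of 8 members were called (18.3% of all genes). Il18rap rose by 0.76 on the log2 scale (SE 0.11, limma adjusted p = 0.000532) and Lck by 1.30 (SE 0.33, limma adjusted p = 0.0149), with means 1.70-fold and 2.56-fold higher. The Lck call was lost with a pseudocount of 0.01 (limma adjusted p = 0.0575) and without replicate 1 of wild type with PBS (limma adjusted p = 0.0596). In labelled knockout libraries the means went from 6.87 to 10.2 FPKM for Il18rap and from 0.263 to 0.44 for Lck. The difference between the LPS responses of the 2 genotypes was -0.19 for Il18rap (SE 0.15, limma adjusted p = 0.772) and -0.67 for Lck (SE 0.46, limma adjusted p = 0.754), and 0 of 8 members were called by limma (1.95% of all genes), with 0 at an unadjusted p under 0.05. At these errors a modest difference in response was not detectable.

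In BMDMs with PBS, where both genes were low, 0 of 6 members tested were called by limma, and 0 by edgeR or DESeq2 (1.82% of all genes by limma). The log2 difference between knockout and wild type was -0.21 for Il18rap (SE 0.21, limma adjusted p = 0.709) and -0.18 for Lck (SE 0.21, limma adjusted p = 0.772). These rest on 86 and 111 counts of Il18rap and on 10 and 15 counts of Lck per group, so a difference of this size could not be resolved. Cd2 had an adjusted p of 0.0397 (limma) on 4 counts against 0, with a fold under the threshold, and was the only member with an unadjusted p under 0.05.

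With LPS, the comparison that picked the pair, Il18rap was 5.45-fold lower in knockout than in wild-type BMDMs by mean FPKM and Lck 3.11-fold lower. Of the 6 members tested these 2 passed both thresholds (4.76% of all genes did), which repeats the choice. LPS against PBS in wild-type BMDMs shares the wild-type LPS libraries with that comparison, and its values are likewise given as a description. Il18rap was 9.67-fold and Lck 154-fold higher with LPS, the second ratio resting on 15 counts in the PBS group, and the same 2 of 6 members passed (40.4% of all genes did). In knockout BMDMs the means were 2.18-fold higher with LPS for Il18rap and 71-fold for Lck, on 10 counts of Lck with PBS.

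The tables were then searched for the markers that a T or NK cell would bring. Of 22 T cell markers, 8 had 0 counts in all RAW264.7 libraries and 9 in all BMDM libraries. Cd3e, Cd8a, Themis, Trac and Trdc were at 0 in both cell types, as were Cd3d, Cd3g, Trbc1 and Trbc2 in BMDMs and Cd4 and Ctla4 in RAW264.7. Of 21 NK cell and innate lymphoid markers, 13 were at 0 throughout RAW264.7, among them Ncr1, Klrb1c and Klrc1, and 8 throughout BMDMs, among them Eomes, Tbx21 and Klrc1. Of all 56691 genes, 26740 had FPKM above 0 in at least 1 RAW264.7 library and 26973 in at least 1 BMDM library. A gene at 0 throughout was therefore common in either cell type. In BMDMs Ncr1, the NK receptor NKp46, reached a mean of 0.02 FPKM in 1 group and was at 0 in the other 3.

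In BMDMs the summed level of the T cell list did not rise with Lck. It lay between 60.23 and 63.2 FPKM in wild-type BMDMs with PBS, between 10.66 and 11.88 with LPS, between 65.32 and 66.51 in knockout with PBS and between 10.6 and 10.91 with LPS, so the LPS libraries, where Lck was high, had the lower sums. Cd28 and Cd4, a costimulatory receptor and a coreceptor of T cells, carried most of it. They were the only 2 of the 22 genes with a mean of at least 1 FPKM in BMDMs, and 15 had at most 12 counts there. The sum therefore follows these 2 genes and cannot show whether the list as a set moved with Lck. Cd28 had mean FPKM 53.3 in wild type with PBS and 5.9 with LPS (limma log2 difference -3.16, SE 0.05, adjusted p = 2.97e-11), and 58.6 and 6.56 in knockout. Cd4 had 8.01 and 4.79 in wild type and 6.55 and 3.47 in knockout. The NK list was also lower with LPS in BMDMs, with sums of 68.76 to 70.71, 17.53 to 18.84, 54.64 to 56.26 and 10.8 to 11.23 FPKM in the same order of groups, led by Il7r, the IL-7 receptor chain. Unlike the T cell sums, the NK sums were lower in knockout than in wild-type libraries in either condition without overlap. This is the direction of Lck and Il18rap with LPS, but the sums rest on few genes. Only 3 of the 21 reached a mean of 1 FPKM in BMDMs, and 14 had at most 12 counts over the BMDM libraries. Of 13 tested, 0 were called with PBS and 1 with LPS, beside 1.82% and 4.76% of all genes. A shift of the NK list as a set was therefore not shown. In RAW264.7 the T cell sum followed Lck in part. It was 0.64 to 1.05 FPKM in wild type with PBS and 1.82 to 2.24 with LPS. In labelled knockout libraries it was 1.08 to 1.99 with PBS and 0.64 to 0.91 with LPS. The sum rose with LPS in wild type and was lower in labelled knockout libraries with LPS, as Lck was. With PBS it was higher in labelled knockout libraries, against Lck. In that group it fell with LPS, whereas mean Lck went from 0.263 to 0.44 FPKM. Cd247 was the highest gene of that list there. The NK sum lay between 0.65 and 1.42 FPKM over all RAW264.7 libraries. The part of these sums in the levels of Lck and Il18rap was not tested.

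A pair of genes in these lists moved with Lck in a single cell type each, Klrk1 in BMDMs and Cd247 in RAW264.7 with LPS. Klrk1 encodes NKG2D, a receptor for stress-induced ligands, and in BMDMs its mean FPKM was 0.03 in wild type with PBS, 4.15 with LPS, 0.0233 in knockout with PBS and 1.14 with LPS. With LPS it was lower in knockout by a log2 difference of -1.78 (SE 0.13, limma adjusted p = 4.14e-05). It was the 1 gene called there of the 13 tested on the NK list. Of 13 tested on the T cell list 0 were called by limma (median-ratio scaling, edgeR and DESeq2 gave 1 lower gene each). Of all genes tested in this comparison, 3.23% were higher and 1.53% lower. Cd247, the CD3 zeta chain that LCK phosphorylates in T cells, went the way of Lck in RAW264.7 with LPS but not with PBS. It had 0.00333 and 1.35 mean FPKM in wild type with PBS and LPS and 0.0133 and 0.22 in labelled knockout libraries. With PBS it was thus near 0 in either genotype, where Lck was lower in labelled knockout libraries. With LPS Cd247 was lower in labelled knockout libraries by -2.20 (SE 0.17, limma adjusted p = 3.05e-05). It was the 1 gene called of 14 tested on the T cell list, beside 9.73% of all genes higher and 7.60% lower. Its LPS response differed between genotypes by -2.33 (SE 0.24, limma adjusted p = 0.00119), whereas that of Lck was not called (-0.67, limma adjusted p = 0.754). In BMDMs Cd247 had 0.02 and 0.207 in wild type and 0.02 and 0.167 in knockout, a difference with LPS that limma did not call. In RAW264.7 Klrk1 stayed at or below 0.03 mean FPKM in all groups.

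**Figure D3:**
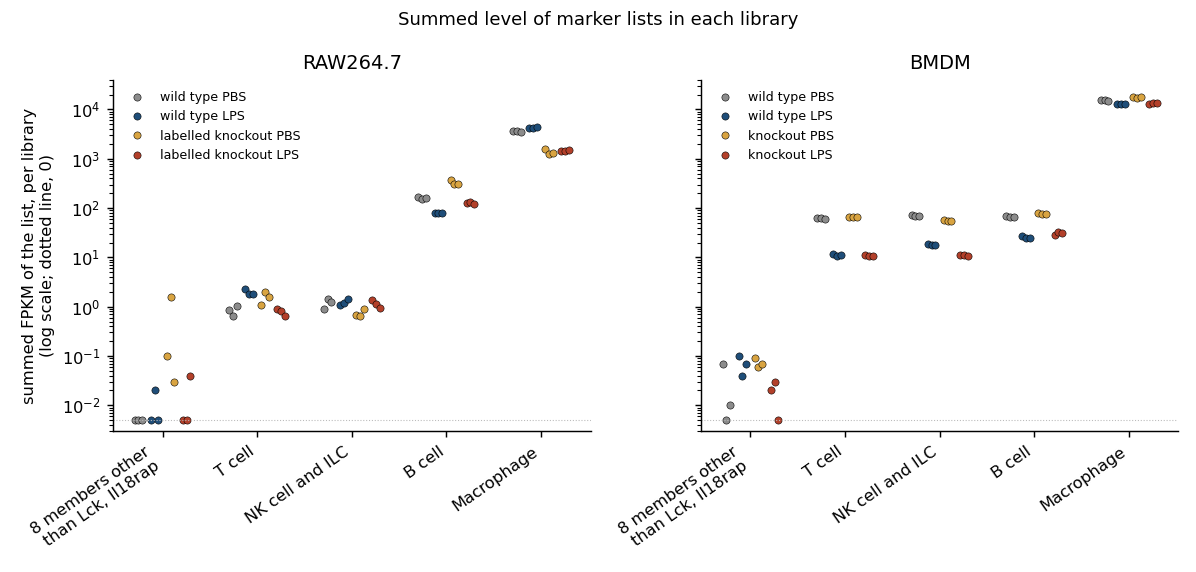
Summed FPKM per library (logarithmic axis, 0 drawn on the dotted line) of the 8 members other than Lck and Il18rap and of the T cell, NK cell and innate lymphoid cell (ILC), B cell and macrophage marker lists, in RAW264.7, left, and BMDM libraries, right. Points are libraries, coloured by group. The 8 members sum to at most 0.1 FPKM in BMDM libraries and reach 1.56 in a single RAW264.7 library, while macrophage markers sum to 1272.6 FPKM or more in every library.

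Other cell types were searched the same way. B cell markers summed to between 24.4 and 79.1 FPKM in BMDMs. In RAW264.7 their sums moved against Lck, at 154.6 to 165.71 FPKM in wild type and 301.48 to 371.95 in labelled knockout libraries with PBS, and 78.42 to 80.71 and 123.61 to 129.74 with LPS. Sums of plasmacytoid dendritic cell markers did likewise, at 7.44 to 8.15 and 18.63 to 22.94 FPKM with PBS and 5.13 to 5.96 and 8.85 to 9.26 with LPS. Only 2 B cell genes and 3 plasmacytoid dendritic cell genes reached a mean of 1 FPKM there. Of 12 B cell genes tested, 2 were called higher and 10 were not called in either condition. Of 8 plasmacytoid dendritic cell genes tested, 3 were higher and 1 lower with PBS, and 2 higher and 0 lower with LPS. Of all genes tested, 4.79% were higher and 3.77% lower with PBS, and 9.73% and 7.60% with LPS. The part of either sum in the lower Lck was not tested. The B cell list was led by Ighm and Blnk, with Cd22, Rag1 and Vpreb3 at 0 throughout RAW264.7 and Blk, Igll1 and Rag1 at 0 throughout BMDMs. Plasmacytoid dendritic cell markers reached at most 14.83 FPKM in BMDMs. Conventional dendritic cell markers reached at most 1.42 and 1.9 FPKM in RAW264.7 and BMDMs, neutrophil and granule precursor markers 2.56 and 8.72, mast cell and basophil markers 34.31 and 14.76 (mostly Hdc, histidine decarboxylase), fibroblast markers 0.41 and 1.79, and erythroid markers 0.61 and 0.71. Macrophage markers were at 12612.5 to 18074.2 FPKM in BMDMs and none of the 12 was at 0.

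The other genes of the receptors and signals around the members were then described from fixed lists. Il18r1, the ligand-binding partner of IL18RAP, was singled out after its values were seen. It had mean FPKM of 0.03 to 0.0967 over the RAW264.7 groups and 0.00333 in each BMDM group, so in the libraries where Il18rap rose to 2.42 FPKM its partner was near 0. Il18, the ligand, rose with LPS from 8.42 to 28.6 mean FPKM in wild-type RAW264.7 and from 13.7 to 72.1 in wild-type BMDMs, and was at 30.5 and 68.7 in labelled knockout RAW264.7 and knockout BMDMs with LPS. Of the IL-12, IL-15 and IL-18 pathway, 3 genes were higher and 1 lower of 23 tested in labelled knockout RAW264.7 with PBS, 7 higher and 2 lower with LPS, 0 higher and 2 lower of 24 in knockout BMDMs with PBS, and 1 higher and 3 lower with LPS. Of all genes tested, in the same order, 4.79% were higher and 3.77% lower, 9.73% and 7.60%, 0.901% and 0.916%, and 3.23% and 1.53%. The median log2 difference of the list was 0.13, 0.09, -0.09 and -0.08, against 0.02, 0.00, 0.01 and 0.04 over all genes tested.

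Within that list, Il18bp, the secreted decoy that binds IL-18, was lower in knockout BMDMs, from 10.7 to 4.55 mean FPKM with PBS (limma log2 difference -1.21, SE 0.08, adjusted p = 3.03e-05) and from 15.8 to 8.33 with LPS. In RAW264.7 with LPS it had the opposite sign, from 1 to 2.02 (0.93, SE 0.22, limma adjusted p = 0.0159). Il12rb1, the shared IL-12 and IL-23 receptor chain, was lower in knockout BMDMs with LPS, at 0.837 against 1.87 mean FPKM (-1.07, SE 0.11, limma adjusted p = 1.52e-04). Il15 was lower in labelled knockout RAW264.7 libraries in either condition, from 8.99 to 3.05 mean FPKM with LPS (-1.56, SE 0.33, limma adjusted p = 0.00906), while Il2rg, the common gamma chain, was higher, from 35.5 to 63. With LPS the mean FPKM of Il27 went from 0.6 to 312 in wild-type RAW264.7 and from 0.62 to 359 in wild-type BMDMs, whereas Il12b went from 0.0533 to 272 in BMDMs and from 0 to 0.147 in RAW264.7.

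Although Ifng was at 0 throughout, genes that interferon gamma is known to induce were expressed. Many of them also answer type I interferon, so the list, which also holds the receptor chains, does not stand for a single ligand. In wild-type cells LPS raised 16 of 24 tested in RAW264.7 and 19 of 25 in BMDMs, and lowered 1 in each, the receptor chain Ifngr1. Of all genes tested, LPS raised 5.80% in RAW264.7 and 7.94% in BMDMs, and lowered 12.5% and 32.5%. The median log2 difference of the list was 3.00 and 4.15, against -0.05 and -0.30 over all genes. Between genotypes, 4.79% of all genes tested were higher and 3.77% lower in RAW264.7 with PBS, and 9.73% and 7.60% with LPS. In BMDMs these shares were 0.901% and 0.916% with PBS, and 3.23% and 1.53% with LPS. Of the list, 1 gene was higher and 5 lower in labelled knockout RAW264.7 with PBS, and 0 higher and 12 lower with LPS. Its medians were 0.01 and -0.57, against 0.02 and 0.00 over all genes. In knockout BMDMs 0 genes of the list were higher and 9 lower with PBS, and 0 higher and 6 lower with LPS. Its medians there were -0.31 and -0.36, against 0.01 and 0.04 over all genes. In BMDMs with LPS the genes lower in knockout were led by Irf8, a transcription factor of the myeloid lineage, from 171 to 40.1 mean FPKM (-2.09, SE 0.06, limma adjusted p = 2.26e-07), Cxcl11 from 26.4 to 7.06, Iigp1 from 220 to 46.7 and Cxcl9, a T cell chemoattractant, from 250 to 19.8 (-3.65, SE 0.28, limma adjusted p = 4.18e-05). In RAW264.7 with LPS they were led by Iigp1, from 0.527 to 0.0567, Nos2 from 23.3 to 4.63, Gbp2 from 12.8 to 2.85 and Igtp from 44.1 to 13.5. Irf8 in RAW264.7 with LPS had 28.9 mean FPKM in wild type and 24.6 in labelled knockout libraries, and limma did not call it.

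Of 19 genes of cytotoxic granules and their release, Gzmf, Gzmg and Gzmk were at 0 throughout both cell types, as were Gzmc, Gzmd and Fasl in BMDMs. Lamp1 and Srgn, a lysosomal membrane protein and the proteoglycan core that packs granule content, were the highest in either cell type. Of 16 tested in RAW264.7, 1 was higher and 3 lower in labelled knockout libraries with PBS and 0 higher and 3 lower with LPS. Of 13 tested in BMDMs, 0 were higher and 1 lower with PBS and 0 higher and 3 lower with LPS. Of all genes tested, 4.79% were higher and 3.77% lower in RAW264.7 with PBS, 9.73% and 7.60% with LPS, 0.901% and 0.916% in BMDMs with PBS, and 3.23% and 1.53% with LPS. Tnfsf10, the death ligand TRAIL, was lower in knockout BMDMs with PBS (0.877 to 0.23 mean FPKM, -1.56, SE 0.07, limma adjusted p = 1.25e-06) and with LPS (51.6 to 23.3, -1.14, SE 0.07, limma adjusted p = 1.51e-05). Ctsc, which activates granzymes, was lower in knockout BMDMs with LPS, from 198 to 126.

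Among the Src family and its partners, Lck was a minor transcript beside Lyn, a kinase of myeloid and B cells. In wild-type BMDMs with LPS the mean FPKM of Lyn was 166, against 11.8 for Lck. Of 15 other genes of this list, none was called lower in knockout BMDMs in either condition by limma, edgeR or DESeq2, and 1 was higher with LPS, the adaptor Pag1 (0.893 to 1.6 mean FPKM, 0.78, SE 0.07, limma adjusted p = 9.56e-05). Of all genes tested in BMDMs, 0.901% were higher and 0.916% lower with PBS, and 3.23% and 1.53% with LPS. In RAW264.7 these shares were 4.79% and 3.77% with PBS, and 9.73% and 7.60% with LPS. There, 3 genes of the list were higher and 2 lower in either condition. Fgr fell from 4.44 to 1.41 mean FPKM with PBS (-1.57, SE 0.10, limma adjusted p = 1.32e-05), and Ptpn22, a phosphatase that acts on LCK in T cells, fell from 16.8 to 9.25 with LPS (-0.85, SE 0.07, limma adjusted p = 5.17e-05), while Syk rose from 4.08 to 8.43.

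Ligands for the receptors in the group were also measured. Cd48, the ligand of CD2, was higher in labelled knockout RAW264.7, from 2.95 to 18.3 mean FPKM with PBS (2.59, SE 0.21, limma adjusted p = 4.77e-05) and from 1.88 to 11 with LPS, and lay between 148 and 196 in the BMDM groups. In the CD2 and SLAM family 2 genes were higher and 1 lower of 12 in labelled knockout RAW264.7 with PBS, 4 higher and 1 lower with LPS, and 0 higher and 1 lower of 12 in knockout BMDMs in either condition (Slamf9 with PBS and Slamf8 with LPS), beside the same shares of all genes. MHC class I and Ib genes, other ligands of CD94, NKG2 and NKG2D receptors, and signalling adaptors of these receptors were described next as 1 list. Of 14 tested, 1 was higher and 6 lower in labelled knockout RAW264.7 with PBS, 1 higher and 9 lower with LPS, 1 higher and 5 lower in knockout BMDMs with PBS, and 0 higher and 3 lower with LPS. Medians were -0.54, -0.87, -0.45 and -0.25, against 0.02, 0.00, 0.01 and 0.04 over all genes, of which 8.55%, 17.3%, 1.82% and 4.76% were called in these comparisons. H2-T23, which encodes Qa-1, the molecule that CD94/NKG2A reads, was lower in all 4 comparisons, from 8.97 to 3.34 and from 31 to 14.7 mean FPKM in RAW264.7, and in BMDMs from 72.4 to 29.5 and from 138 to 88.5, each with PBS and then LPS.

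**Figure D4:**
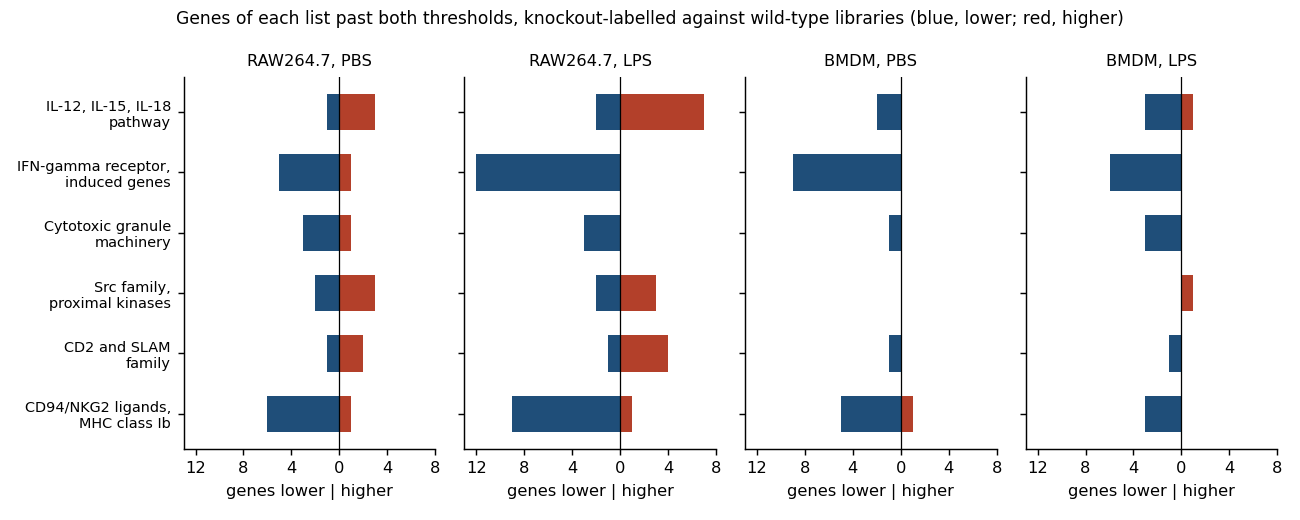
Number of genes of 6 lists that passed both thresholds (limma adjusted p below 0.05, fold change 1.5 or more) in each comparison of knockout or labelled knockout with wild-type libraries, drawn to the left where lower and to the right where higher. The list of interferon gamma receptor and induced genes and that of CD94/NKG2 ligands and MHC class Ib lie mainly to the left. In RAW264.7 with LPS, 12 of 24 and 9 of 14 tested genes were lower, beside 7.60% of all genes.

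The genes most like each of the pair over the 12 BMDM libraries were taken from 11579 genes by the Pearson correlation of log2(FPKM + 0.1). The 12 points share the 4 groups, so a high value describes the group pattern. For Il18rap they were Rbms1 (r = 0.984), Rubcnl (0.981), Irf8 (0.979), Usp7 (0.979) and Snap29 (0.978). Rubcnl had mean FPKM of 1.96, 7.14, 1.56 and 2.3 in wild type with PBS and LPS and knockout with PBS and LPS. For Lck they were Homer1 (0.998), Socs7, Plcl2, Csrnp1 and Asap3 (0.997 each). In the same order of groups Asap3 had 0.0133, 7.76, 0.0267 and 2.4, and Csrnp1 1.92, 27.7, 1.97 and 15.5. Lck and Il18rap themselves had r = 0.870 in BMDMs and 0.804 in RAW264.7. The pair was picked for being lower in knockout BMDMs with LPS, so the BMDM value in part repeats that choice.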

How the data were processed

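RNA-seq of RAW264.7 cells and BMDMs gave 24 libraries in 8 groups of 3, assigned by sample title. A genotype tag went against the title in 12 samples, and the titles were used. Poly(A) RNA was sequenced by the authors as paired reads of 150 bases. The deposited tables, 1 per cell type, hold raw counts per gene and the authors' FPKM for 56691 genes, with the gene length behind them. The submitters' processing notes name mm 10, but only 2.8268% of the 52073 gene IDs shared with GENCODE M21 have its coordinates, so positions were taken from GENCODE M21 by gene ID. The 2 tables were normalized separately, and tests were made within a table.

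The 10 members and the lists were chosen with earlier results of these data known. Log2(FPKM + 0.1) was fitted with limma 3.58.1 in R 4.3.3 with 4 group means over the 12 libraries of a cell type. P-values were adjusted by Benjamini-Hochberg over all genes tested. A call needs an adjusted p below 0.05 and a 1.5-fold difference or more. Genes named besides the members are those of each list past both thresholds with the smallest adjusted p (at most 4 per comparison), the 2 highest by mean FPKM per cell type, Olfml3, and the 5 genes most alike each of Lck and Il18rap; any other gene was picked with its values in view. Alternatives tried were pseudocounts of 0.01 and 1, a minimum of 0.1 FPKM in 3 libraries, median-ratio scaling, edgeR 4.0.16 and DESeq2 1.42.0 on the deposited counts (at least 10 summed counts), the 2 groups alone, a replicate block, and each library left out. The scripts were tested on simulated data. Some genes of the lists are not reported here by name.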

Additional observations from a re-analysis of the deposited data

How the results depend on the processing

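In the comparisons of labelled knockout with wild-type RAW264.7, of knockout with wild-type BMDMs with LPS, and of LPS with PBS in wild-type cells, Lck and Il18rap kept their direction under all 14 alternatives. The comparison of BMDM genotypes with LPS picked the pair, and the LPS response of wild-type BMDMs shares libraries with it. A kept direction in these BMDM comparisons therefore repeats the choice. In BMDMs with PBS, where neither was called, Lck ranged from -0.54 to 0.0019 on the log2 scale, the highest without replicate 3 of wild type. The number of members called among labelled knockout and wild-type RAW264.7 libraries with PBS was 1 and became 0 with the 2 groups alone, and ranged from 1 to 2 with each library left out, 2 being reached without replicate 3 of the labelled knockout group, where Nkg7 was added. With LPS it was 1 and became 2 with median-ratio scaling, 2 with edgeR and 2 with DESeq2, and ranged from 1 to 2 with each library left out, Il18rap being added without replicate 2 of wild type or replicate 1 of labelled knockout. For the LPS response of wild-type RAW264.7 it was 2 and became 1 with a pseudocount of 0.01, and ranged from 1 to 2, losing Lck without replicate 1 of wild type with PBS. In BMDMs a pseudocount of 0.01 gave 1 called member with PBS (Cd2, on 4 counts) and 1 with LPS in place of 2. The log2 difference of Lck ranged from -2.57 to -1.30 in RAW264.7 with LPS, past both thresholds in all 14, and from -2.03 to -0.66 with PBS, in 13 of 14.

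Same-numbered libraries did not deviate together (correlations from -0.039 to 0.084 in RAW264.7, and -0.058 to 0.071 in BMDMs), so the numbers were not taken as pairs. With the replicate block the counts of members called were 1, 1 and 2 in RAW264.7 (PBS, LPS, LPS response) and 0, 2 and 2 in BMDMs, the same as without it. Median-ratio scaling moved the median of all genes by 0.30 on the log2 scale in the LPS response of wild-type BMDMs, and by at most 0.05 in RAW264.7. That median includes many genes near 0, and the same scaling moved Il18rap in the LPS response of wild-type RAW264.7 from 0.76 to 0.99 and in that of BMDMs from 2.87 to 3.54, and Lck from 1.30 to 1.53 and from 6.12 to 6.69. Depth limits the 8 scarce members and Lck in BMDMs with PBS, which had 15 and 10 counts per group.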

Other observations

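Replicate 2 of the labelled knockout RAW264.7 libraries with PBS held genes seen in no other library of its cell type. Counting genes with at least 5 counts in 1 library and 0 in the other 11, it had 9 with 62 counts in all, against 0 to 7 genes in the other RAW264.7 libraries. Gzma (15 counts) and Gzmb (8), the granzymes, and Krt1 (8), a keratin of the epidermis, were the most counted. They were chosen after their values were seen, and the source of these counts was not tested. Without this library the log2 difference of Lck between labelled knockout and wild type with PBS was -1.87 (limma adjusted p = 0.0152).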
